A study of Homo sapiens with 8 samples.

Results

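Cohesin and condensin I were followed through 10 genes, 5 for each complex: SMC1A, SMC3, RAD21, STAG1 and STAG2 for cohesin, and SMC2, SMC4, NCAPD2, NCAPG and NCAPH for condensin I. They were picked by symbol among the 17559 genes of the chip. Each had 1 probe, and all 10 passed the filter on dim probes. The cells were HCT116, a single human colorectal cancer line, and each array held RNA of 1 sample labelled with Cy5 on a 3D-Gene 25K oligo chip. Lipofectamine RNAiMAX, per the study's methods, carried in either a synthetic miR-8073 mimic (3 arrays) or a mirVana microRNA-negative control sequence (3 arrays), and a mock group (2 arrays) received a blank. How long after transfection the RNA was taken is absent from the labels and given as 2 different times in the study. Since no label calls the replicates separate cultures, the spread behind each p-value is that between these samples and may be technical.

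Cohesin is a ring of the ATPase pair SMC1A and SMC3 closed by the kleisin RAD21, to which either STAG1 or STAG2 binds. It holds sister chromatids together from replication until separase cleaves RAD21, and it extrudes loops in interphase chromatin. Condensin I is built on the same plan, with SMC2 and SMC4 as ATPases, NCAPH as kleisin, and NCAPD2 and NCAPG as HEAT-repeat subunits, and it compacts chromosomes in mitosis.

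The transfected microRNA is shown because its seed, bases 2 to 8 of the mature strand, is the part that pairs with target mRNA. In the RefSeq table (GRCh38.p14) its seed, in capitals below, belonged to 1 mature human miRNA, miR-8073 itself. The study, however, names a further microRNA that shares this seed, so the count holds for that table only. Sites for it in the mRNAs of the subunits were not analysed here.
hsa-miR-8073 (chr13:110340968-110340989, plus strand): aCCUGGCAgcagggagcgucgu

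Promoter stretches are shown for both called subunits, NCAPH and STAG2, for NCAPD2 and NCAPG, the partners of NCAPH that did not pass the test, and for CDCA5, the cohesin regulator that was called against both controls. Each holds the 150 bases before the RefSeq start (GRCh38.p14), and for STAG2, which has 3 listed starts, the first one was used. Capitals mark 3 kinds of motif searched on both strands: the cell cycle homology region (CHR, TTTGAA or TTCGAA), the CCAAT box (CCAAT) and the letters TTCCCGC or TTGGCGC, which E2F proteins can bind.
NCAPH (chr2:96335616-96335765, plus strand): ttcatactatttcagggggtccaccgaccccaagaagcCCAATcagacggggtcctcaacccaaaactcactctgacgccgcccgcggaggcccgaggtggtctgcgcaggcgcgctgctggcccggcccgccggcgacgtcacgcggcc
NCAPD2 (chr12:6493952-6494101, plus strand): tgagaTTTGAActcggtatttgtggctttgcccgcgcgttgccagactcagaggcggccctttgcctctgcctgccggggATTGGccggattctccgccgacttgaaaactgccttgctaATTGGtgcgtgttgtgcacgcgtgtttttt
NCAPG (chr4:17810829-17810978, plus strand): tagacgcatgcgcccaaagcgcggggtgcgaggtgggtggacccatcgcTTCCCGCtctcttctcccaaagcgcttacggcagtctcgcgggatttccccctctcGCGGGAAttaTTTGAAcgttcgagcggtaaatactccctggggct
STAG2 (chrX:123960410-123960559, plus strand): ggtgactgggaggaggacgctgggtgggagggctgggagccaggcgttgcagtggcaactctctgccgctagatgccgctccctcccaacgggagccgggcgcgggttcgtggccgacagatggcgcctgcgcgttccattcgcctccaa
CDCA5 (chr11:65084041-65084190, minus strand): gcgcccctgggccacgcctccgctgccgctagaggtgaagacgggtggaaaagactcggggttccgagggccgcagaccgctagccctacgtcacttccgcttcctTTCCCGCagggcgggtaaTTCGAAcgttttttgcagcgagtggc

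NCAPH held a CCAAT box 112 bases before its start. NCAPD2 held TTTGAA 145 bases and CCAAT, on the other strand, 70 and 30 bases before the start. NCAPG held TTCCCGC 101 bases before the start and again, on the other strand, at 45, followed by TTTGAA at 35. CDCA5 held TTCCCGC at 44 and TTCGAA at 26, and the STAG2 window held none of these letters. Over the same 150 bases of 27305 genes, 7.98% held a CHR, 24.4% a CCAAT box and 5.28% an E2F match. No link between a match and a change was tested, so a match is a description only.

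Between 11559 and 12786 of 24460 probes were above background on an array, meaning above the 95th percentile of the 2680 blank spots. Log2 values of arrays correlated at 0.993 to 0.996 within groups and at 0.983 to 0.993 between groups. The cells carried the epithelial transcripts EPCAM, KRT18 and KRT19, and 5 of 7 measured epithelial markers were above background on every array, with CEACAM5 on none. PTPRC, CD3E, VWF, COL1A1 and COL1A2, which mark leukocytes, endothelium and fibroblasts, were above background on no array, whereas CD68, PDGFRB and DCN were above it on all 8. CD68, a lysosomal protein abundant in macrophages, averaged 17.5 with the negative control, 7.95 with the mimic and 19.0 in mock (limma adjusted p = 0.0136 for mimic against negative control, 0.0332 for mimic against mock). The samples were of a single cultured line, and what lies behind the CD68, PDGFRB and DCN signals was not tested. The summed signal of 4 proliferation genes (MKI67, CCNB1, PLK1, AURKB) was 2212 to 2469 on the mimic arrays. It was 2624 to 2927 on the negative control arrays and 2604 to 3112 on the mock arrays. CCNB1 and AURKB made up most of this sum. Mean CCNB1 was 1462 for mimic, 1615 for negative control and 1960 for mock, and mean AURKB was 828, 1129 and 854. Against the negative control, no single gene of the 4 had a limma adjusted p below 0.05. Against mock, CCNB1 alone did (0.0362). The part of proliferation in the results for the subunits was not tested.

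All values below are normalized signals in scanner units after the offset of 50 was taken off again, and changes are in log2(signal + 50), where a dim probe appears to change less than it does. A probe was called at a Benjamini-Hochberg adjusted p below 0.05 over all 12904 tested probes. Probes differ in brightness for reasons of their own, so levels are compared between groups and not between genes. In these bulk samples less RNA per cell and fewer cells with the transcript cannot be told apart.

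Among the 10 subunits, NCAPH fell and STAG2 rose with the mimic relative to the negative control, and the other 8 were not called. Over all tested probes 7.82% were lower and 7.81% higher in this comparison, so 1 of 10 in each direction is near the background share. Relative to mock, NCAPH alone was called, lower with the mimic, where 2.56% of all probes were lower and 1.22% higher. The negative control arrays were called lower than mock for STAG2 alone, where 2.23% of all probes were lower and 1.37% higher. The 3 comparisons share arrays, so their results are not independent of each other. The median change of the 10 subunits was -0.03, -0.09 and -0.07 in these comparisons in turn, against 0.0041, 0.0063 and 0.00089 over all tested probes.

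**Figure D1:**
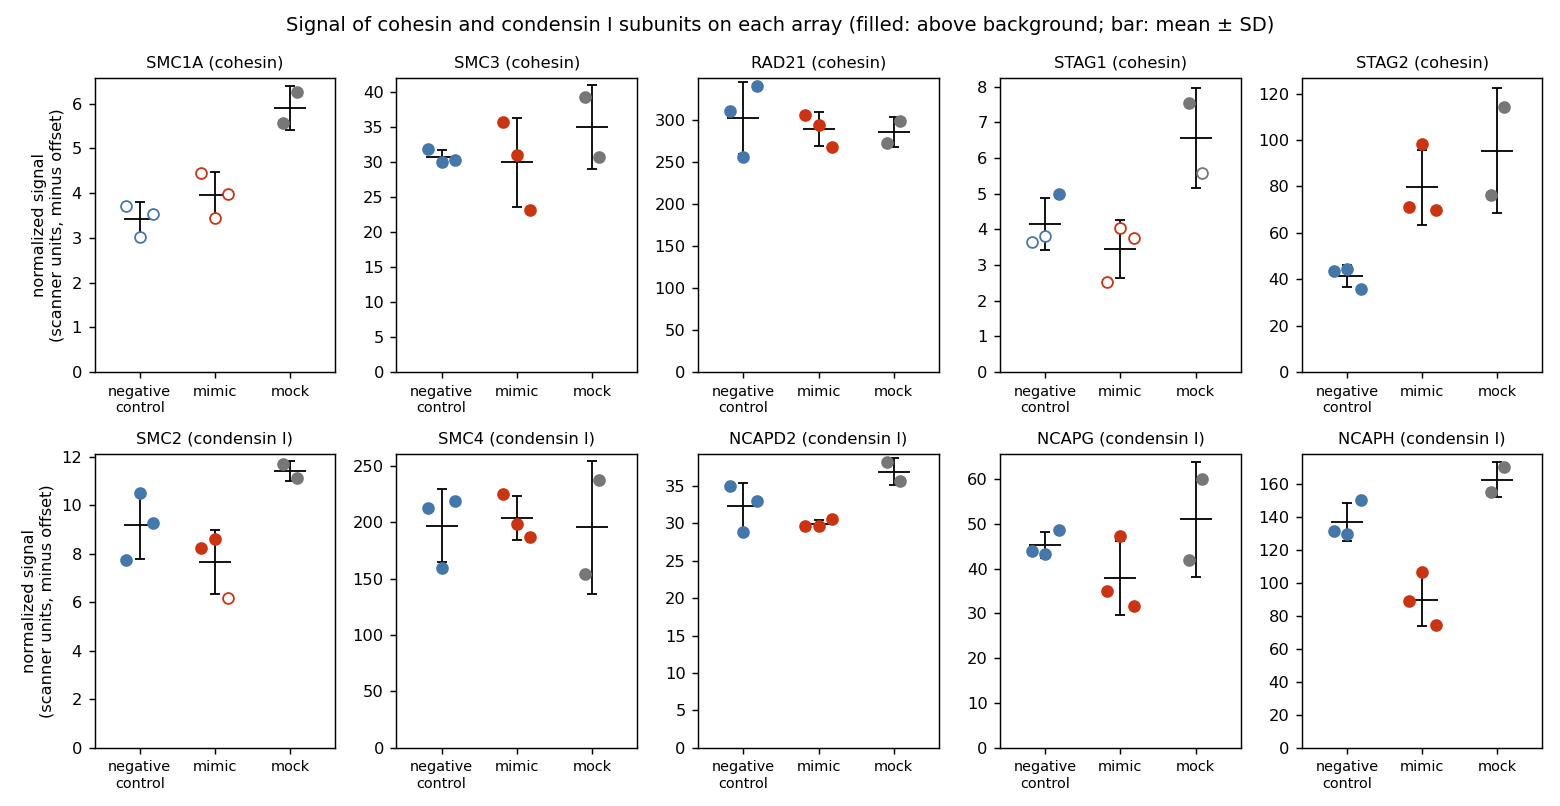
Normalized signal (linear axis from 0, scanner units, a scale of its own in each panel) of the 10 subunits on the 3 negative control, 3 mimic and 2 mock arrays. Points are arrays, open where the probe was not above background, and bars give the mean ± SD. The 3 mimic arrays of NCAPH lie between 74.3 and 106, below all 5 control arrays, and the 3 negative control arrays of STAG2 lie between 36.0 and 44.5, below all 5 others.

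NCAPH (probe H200000307) encodes the kleisin that links SMC2 and SMC4 and carries both HEAT-repeat subunits of condensin I. Its signal was 132, 129 and 150 on the negative control arrays, 88.7, 106 and 74.3 on the mimic arrays, and 155 and 170.0 on the mock arrays. The mimic arrays thus lay below every control array, and the negative control arrays lay below both mock arrays. The mean was 89.8 ± 16.02 with the mimic and 137 ± 11.5 with the negative control (SD, n = 3 each), a 1.53-fold lower signal (log2 change -0.43 ± 0.09 SE, 95% interval -0.63 to -0.22, limma adjusted p = 0.0183). Mock averaged 163 ± 10.6 (SD, n = 2), and against it the mimic group was 1.81-fold lower (log2 change -0.61 ± 0.10 SE, limma adjusted p = 0.0198). The negative control differed from mock by -0.18 (95% interval -0.41 to 0.04, limma adjusted p = 0.334).

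Both NCAPH calls rested on several single arrays, although the sign was negative in all 19 alternatives in each comparison. The call against the negative control held in 11 of 19 alternatives and that against mock in 9 of 19. Both were lost with the ring background, median centring, the log2 values deposited by the authors, no filter and the methods' t-test. Against the negative control the adjusted p from limma was 0.0523 without negative control 1, 0.0618 without negative control 3 and 0.0547 without mimic 1. Against mock it was 0.0594 without mimic 1, 0.0577 without mock 1 and 0.115 without mock 2.

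The other condensin I genes were not called in any comparison. NCAPG (DHsGV10001368), a HEAT-repeat subunit, read 44.0, 43.3 and 48.6 with the negative control, 34.9, 47.2 and 31.5 with the mimic, and 41.9 and 60.1 in mock. Mimic 2 lay inside the range of the negative control while the other mimic arrays lay below it, and the change was -0.12 (95% interval -0.32 to 0.08, limma adjusted p = 0.391). NCAPD2 (CHsGV10000774), which binds the complex near the SMC heads, read 35.0, 28.9 and 33.0, then 29.7, 29.6 and 30.6, then 38.2 and 35.6 in the same order of groups. Its mimic arrays lay within the range of the negative control arrays and below both mock arrays, where the change of -0.12 had an unadjusted limma p of 0.025 and an adjusted p of 0.185.

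SMC4 (H300019898), an ATPase that condensin I and II share, read 213, 159.6 and 219 with the negative control, 225, 198 and 187 with the mimic, and 154 and 237 in mock. Both mock arrays enclosed all the others, and the change with the mimic was 0.04 against the negative control (95% interval -0.30 to 0.38). SMC2 (opHsV0400000746), its ATPase partner, was dim, at 7.75, 10.5 and 9.29, then 8.23, 8.60 and 6.16, then 11.7 and 11.1, and was above background on all arrays but mimic 3. The mimic arrays overlapped the negative control arrays and lay below both mock arrays (log2 change -0.09, 95% interval -0.18 to 0.00065, limma adjusted p = 0.274).

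STAG2 (opHsV0400011091) encodes one of the alternative HEAT-repeat subunits of mitotic cohesin, and its gene is X-linked and recurrently mutated in cancers. Its signal was 43.5, 44.5 and 36.0 on the negative control arrays, 70.9, 98.4 and 69.7 on the mimic arrays, and 76.4 and 114 on the mock arrays. The negative control group stood apart below, while the mimic and mock arrays overlapped. The mean was 41.3 ± 4.64 with the negative control and 79.7 ± 16.2 with the mimic (SD, n = 3 each), a 1.93-fold higher signal with the mimic (log2 change 0.50 ± 0.12 SE, 95% interval 0.22 to 0.78, limma adjusted p = 0.0296). Against the mock mean of 95.4 ± 26.8 (SD, n = 2), the mimic group changed by -0.16 (95% interval -0.47 to 0.15, limma adjusted p = 0.598). The negative control group was 2.31-fold lower than mock (log2 change -0.66 ± 0.13 SE, 95% interval -0.97 to -0.35, limma adjusted p = 0.043).

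The STAG2 difference between mimic and negative control was not called without negative control 1 (limma adjusted p = 0.0798), negative control 2 (0.064), negative control 3 (0.0928), mimic 1 (0.0547) or mimic 2 (0.0706), and its log2 change stayed between 0.40 and 0.55 over all arrays left out. With a local background, read from the ring around each spot, it was -0.03, a setting under which limma called 0 of all tested probes. The difference between negative control and mock was called in 1 of the 8 settings that left out an array, the one without mimic 2, with adjusted p from 0.0406 to 0.121 over the 8.

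**Figure D2:**
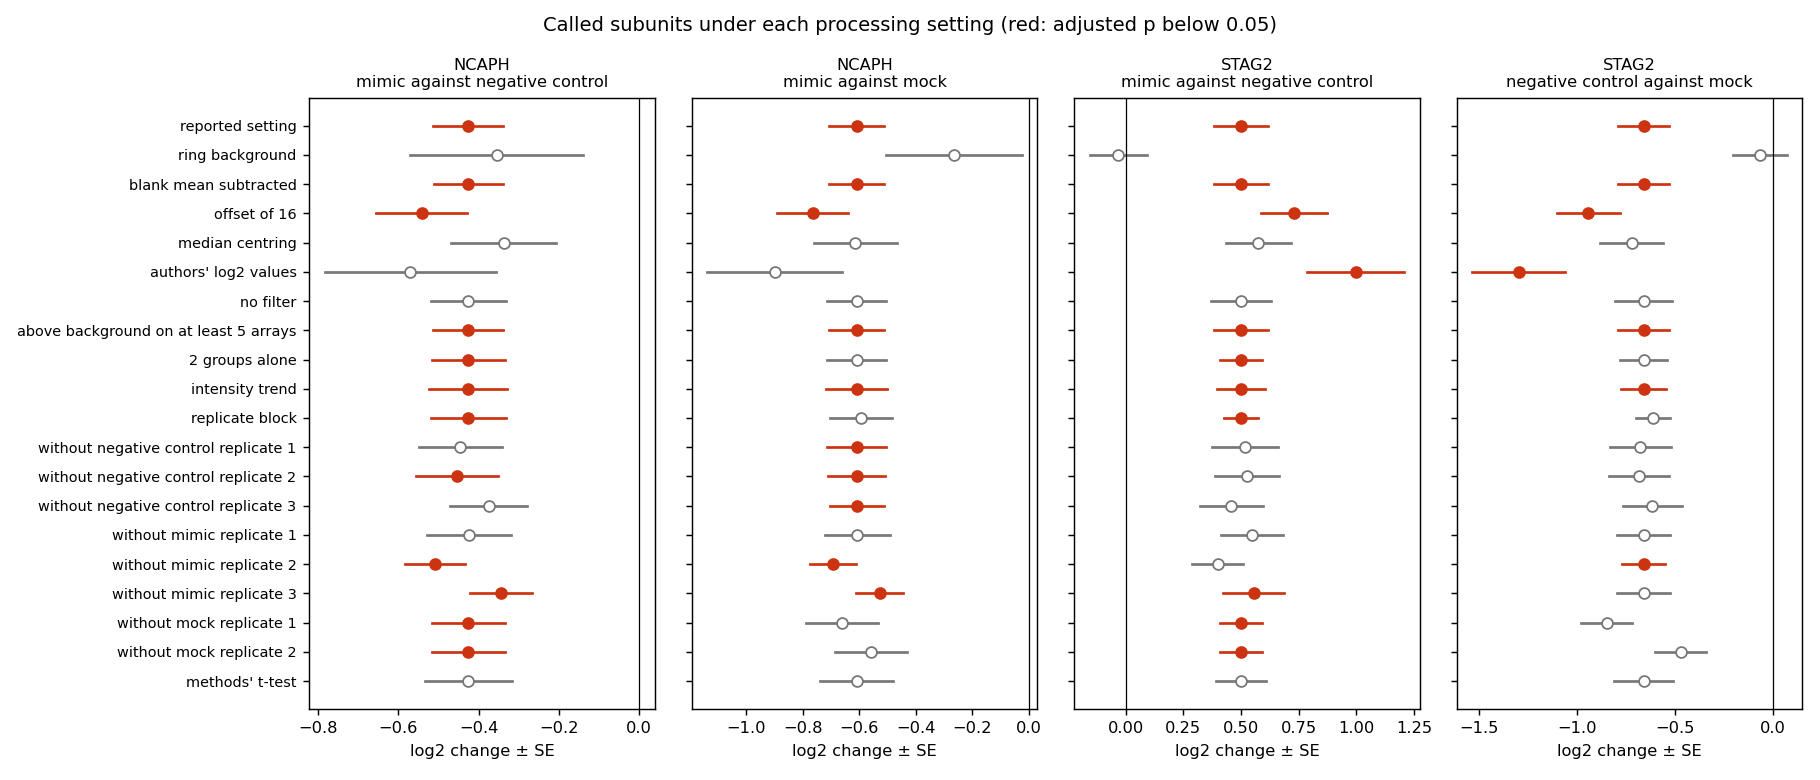
Log2 change ± SE (x axis) of NCAPH and STAG2 in the comparisons in which each was called, at the reported setting and at 19 alternatives (y axis). Red points have an adjusted p below 0.05. NCAPH is left of 0 throughout, and STAG2 against the negative control is right of 0 except with the ring background, at -0.03.

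RAD21 (H300011962), the kleisin that separase cuts, read 311, 256 and 340.4 with the negative control, 306, 294 and 268 with the mimic, and 273 and 299 in mock. The groups overlapped, and the change with the mimic was -0.05 against the negative control (95% interval -0.26 to 0.17) and 0.01 against mock (95% interval -0.23 to 0.26). SMC3 (H300016217), the ATPase whose acetylation locks the ring, read 31.9, 30.0 and 30.3, then 35.7, 31.0 and 23.2, then 39.3 and 30.8. The mimic arrays spanned the whole range of the negative control arrays, with a change of -0.02 (95% interval -0.17 to 0.14).

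SMC1A (opHsV0400003379), the partner ATPase of SMC3, and STAG1 (H300018107), the alternative to STAG2, lay at the detection limit. SMC1A was above background on both mock arrays, at 5.56 and 6.25, and on none of the 6 mimic and negative control arrays, at 3.02 to 4.46. The group means were 3.43 with the negative control, 3.96 with the mimic and 5.91 in mock. Taken against the dimmest probe above background on each array, on the log2(signal + 50) scale, mock was at least 1.01-fold brighter than the mimic group (limma adjusted p = 0.488) and at least 1.009-fold brighter than the negative control group (0.315). STAG1 was above background on negative control 3 at 4.98 and on mock 1 at 7.55. Its other readings were 3.64 and 3.82 with the negative control, 2.52, 4.04 and 3.76 with the mimic, and 5.57 in mock. The mean was 6.56 in mock and 3.44 with the mimic (limma adjusted p = 0.303). Since mock 2 was not above background either, no bound on the fold is given for STAG1. Neither gene was called in any comparison, and at this brightness a difference would be hard to detect. Because SMC1A passed the filter only through the mock arrays, and STAG1 partly through mock 1, the filter favoured a brighter mock group.

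**Figure D3:**
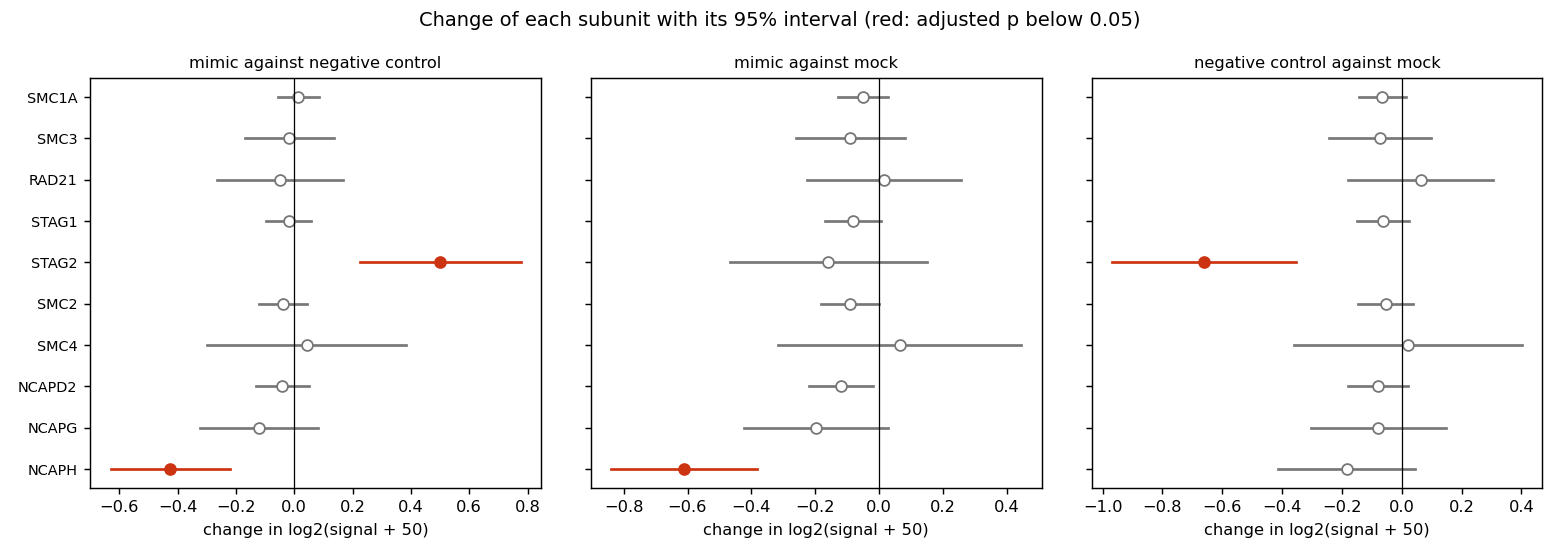
Change in log2(signal + 50) (x axis) of each subunit (y axis) in the 3 comparisons. Points are estimates from limma, lines their 95% intervals, and red marks an adjusted p below 0.05. Of 30 estimates, 4 are red: NCAPH at -0.43 and -0.61, and STAG2 at 0.50 and -0.66.

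Against the mock arrays more subunits stood without overlap than were called. All 3 mimic arrays lay below both mock arrays for 5 of the 10 subunits (SMC1A, STAG1, SMC2, NCAPD2 and NCAPH), where 16.9% of all probes did, and 4 of these 5 were not called. All 3 negative control arrays lay below both mock arrays for 6 subunits (the same 5 and STAG2), where 19.9% of all probes did. Both counts rest on the same 2 mock arrays. SMC1A passed the filter on dim probes only through these mock arrays, and STAG1 only through mock 1 and negative control 3. Their place below mock was thus favoured by the filter, and their share in the counts is no support for a difference. Between mimic and negative control the groups stood apart for NCAPH, lower, where 18.2% of all probes did, and for STAG2, higher, where 19.6% did. The share of all probes with a group apart from both others was not counted. This limits every such statement on NCAPH, STAG2 and the genes below.

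Regulators and relatives of the complexes were counted over 33 genes in 4 lists, of which 31 were on the chip and 26 were tested, each by its brightest probe. With the mimic, 6 of the 26 fell and 2 rose relative to the negative control, 1 fell relative to mock, and none differed between negative control and mock by limma, where 6 had an unadjusted p below 0.05. The shares over all tested probes were 7.82% lower and 7.81% higher against the negative control and 2.56% lower against mock, so the 2 that rose and the 1 that fell relative to mock are near the background. The lists were chosen with earlier results of these data known, so the 6 that fell are no support for a shift of the lists. The list medians of the change against the negative control lay between -0.07 and 0.04.

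CDCA5 (CHsGV10000407), or sororin, which protects acetylated cohesin from release until mitosis, fell against both controls. It read 78.7, 102 and 104 with the negative control, 42.0, 42.2 and 37.4 with the mimic, and 96.1 and 98.8 in mock, with no overlap of the mimic arrays with any control array. The mimic mean of 40.5 ± 2.76 (SD, n = 3) was 2.34-fold below the negative control (log2 change -0.67 ± 0.07 SE, limma adjusted p = 0.00165) and 2.40-fold below mock (log2 change -0.70 ± 0.08 SE, limma adjusted p = 0.00628). The first call held in 18 of 19 alternatives and the second in 16 of 19.

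PTTG1 (H300008454), or securin, the inhibitor of separase, read 1517, 1499 and 1352 with the negative control, 467, 786 and 707 with the mimic, and 669.7 and 1015 in mock. The mimic arrays lay below the negative control arrays but overlapped the mock arrays. The negative control arrays lay above both mock arrays, with a log2 change of 0.78 (limma adjusted p = 0.107). Against the negative control PTTG1 changed by -1.13 ± 0.20 SE on the log2 scale (limma adjusted p = 0.0117), and by -0.35 ± 0.23 SE against mock (limma adjusted p = 0.49). PTTG1 has near-identical copies elsewhere in the genome, and how far its probe separates them is not known here. Separase itself, ESPL1, changed by -0.04 and SGO1, which shields centromeric cohesin, by -0.12, neither of them called.

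WAPL (H300019768), which opens the ring and releases cohesin, rose: it read 32.0, 39.5 and 41.2 on the negative control arrays, 56.4, 52.3 and 53.0 on the mimic arrays, and 42.7 and 48.6 on the mock arrays. The mimic arrays lay above every control array, with a log2 change of 0.25 against the negative control (limma adjusted p = 0.0179) and 0.12 against mock (0.324), and the first was not called without mimic 1 (0.0576). CTCF (H200005244), the DNA-binding protein at which loop extrusion by cohesin halts, read 44.7, 56.4 and 59.2, then 83.1, 69.1 and 96.3, then 66.1 and 86.7. It was higher with the mimic than with the negative control by 0.36 (limma adjusted p = 0.0476) and differed from mock by 0.07 (0.81), so, as for STAG2, the mimic arrays overlapped the mock arrays. The CTCF call held in 9 of 19 alternatives and in 3 of the 8 that left out an array.

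NIPBL, MAU2, PDS5A, PDS5B, ESCO2 and HDAC8 were not called in any comparison. NIPBL, the loader, averaged 20.3 with the negative control, 27.2 with the mimic and 21.8 in mock, and its partner MAU2 was above background on 2 arrays. PDS5A and PDS5B, which bind the ring beside WAPL, changed by -0.11 and -0.02 against the negative control. ESCO2, an acetyltransferase of SMC3, changed by 0.02, and HDAC8, the deacetylase, by 0.10, whereas ESCO1 was above background on no array. DDX11, a helicase with a role in cohesion and with near-identical copies in the genome, had 2 tested probes that differed: H300021750 changed by -0.47 (limma adjusted p = 0.0345) and the dimmer DHsGV10003810 by -0.0059 (0.955). The first of these, one of the 6 genes counted as lower, kept its call in 9 of 19 alternatives and in 4 of the 8 that left out an array, with adjusted p up to 0.102 over those 8.

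Of the meiotic cohesin paralogs, SMC1B and RAD21L1 were above background on no array. STAG3 averaged 21.3 with the negative control, 28.0 with the mimic and 23.7 in mock, and REC8 averaged 10.9, 8.55 and 5.06, and neither was called.

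Condensin II, which shares SMC2 and SMC4 and acts earlier in mitosis, was read through NCAPD3, NCAPG2 and NCAPH2. NCAPG2 (H200002746) read 99.8, 94.3 and 75.3 with the negative control, 67.1, 67.7 and 66.8 with the mimic, and 82.5 and 90.8 in mock. Its mimic arrays lay below every control array, with a log2 change of -0.25 against the negative control (limma adjusted p = 0.0462) and -0.22 against mock (0.167), and the first call held in 5 of 19 alternatives. NCAPH2, the kleisin of condensin II, had 2 probes that differed: AHsV10001451 changed by -0.38 (limma adjusted p = 0.00347) and the brighter H300021077, which counts for the gene, by 0.0046 (0.982). TOP2A, the topoisomerase that works beside condensin, and NCAPD3 were not called, and MCPH1 was above background on no array.

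In the SMC5/6 complex, which acts in DNA repair, SMC6 (CHsGV10003239) fell, from 102, 99.2 and 86.0 on the negative control arrays to 52.5, 73.9 and 40.1 on the mimic arrays, against 65.1 and 60.1 in mock. The mimic arrays enclosed both mock arrays, and the log2 change was -0.48 against the negative control (limma adjusted p = 0.0275) and -0.11 against mock (0.733). SLF1 (AHsV10003426), which recruits the complex to lesions, changed by -0.39 (limma adjusted p = 0.00867) and -0.14 (0.356), and its dimmer probe opHsV0400000352 by -0.04 (0.513). For SMC6 and for the SLF1 probe AHsV10003426 the negative control arrays lay above both mock arrays, as 19.4% of all probes did. The log2 change of negative control against mock was 0.37 for SMC6 (limma adjusted p = 0.145) and 0.25 for SLF1 (0.109). The SMC6 call held in 3 of the 8 settings that left out an array, and that of SLF1 in all 8.

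**Figure D4:**
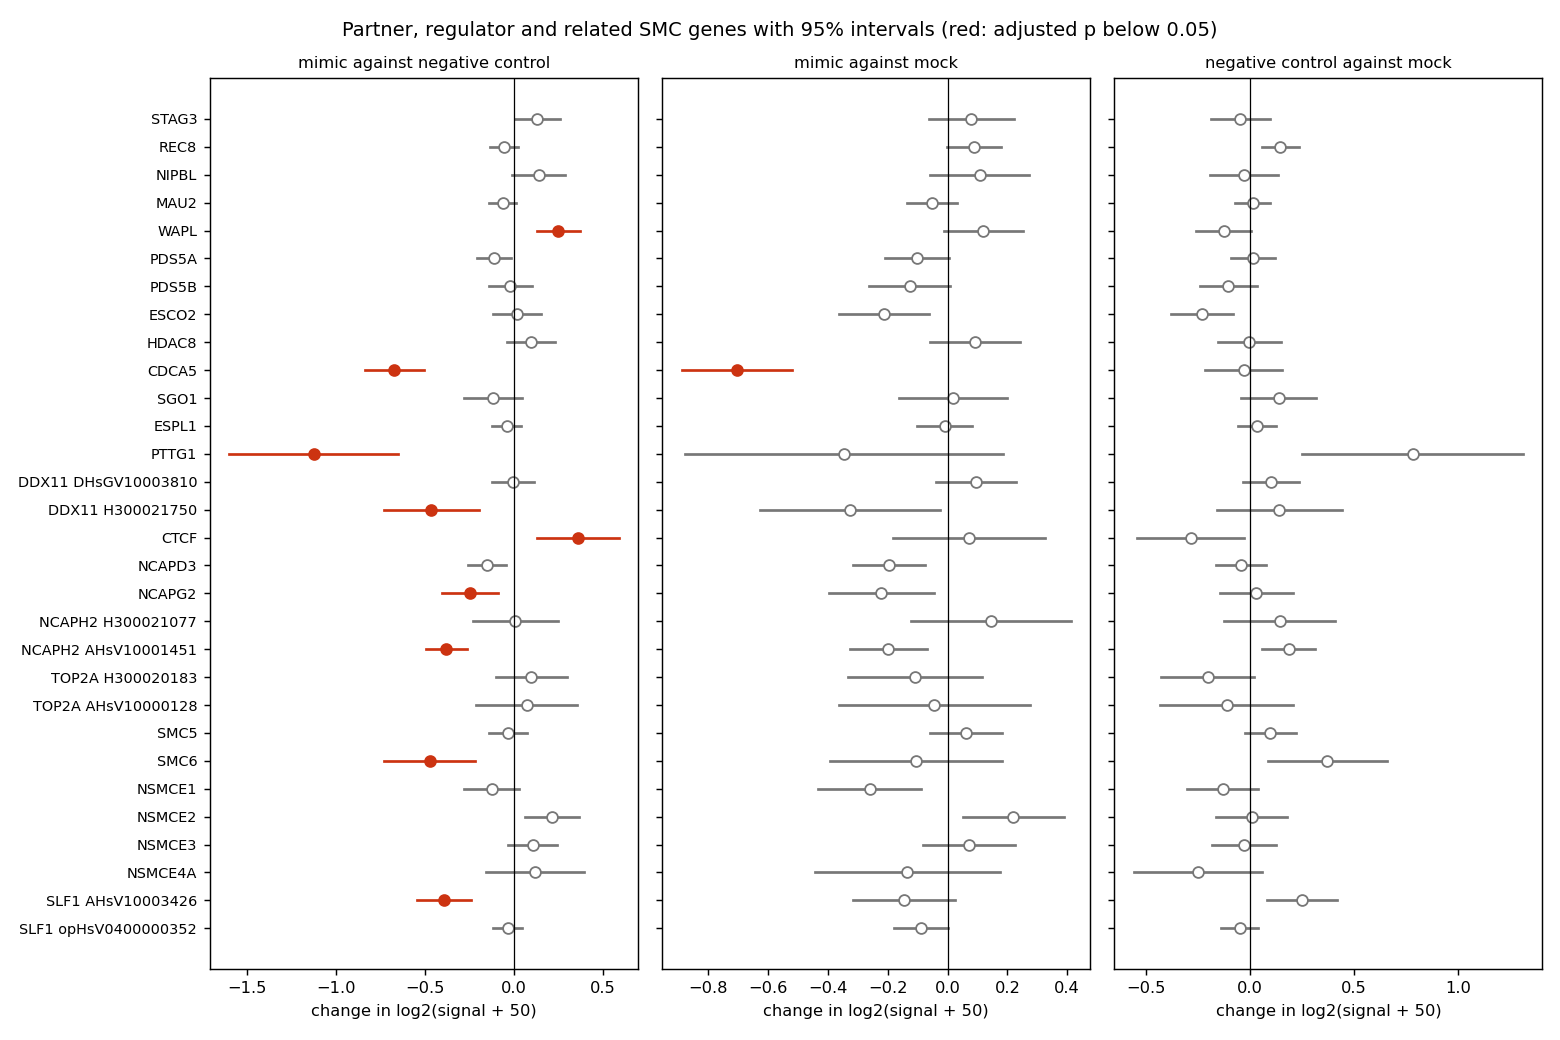
Change in log2(signal + 50) (x axis, a range of its own in each panel) of every tested probe of the 4 further gene lists (y axis) in the 3 comparisons, as limma estimates with 95% intervals. Red marks an adjusted p below 0.05. CDCA5 is red against both controls, at -0.67 and -0.70, and no probe is red between negative control and mock.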

How the data were processed

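Spot intensities were deposited by the authors as scanner medians of the Cy5 channel, per the file headers neither background-corrected nor normalized. The deposited log2 values, described by the authors as quantile normalized, were used as an alternative. They keep the order of the spot intensities, and how background was removed from them is not given in these sources. A second deposited channel belongs to no sample. Of its 80 readings of the 10 probes, 5 were above the 95th percentile of the blanks, and it was not used further. The number of columns of other samples set aside was 0.

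Of 27456 spots per array, 2680 blank spots gave the background (limma's nec, offset 50), before quantile normalization (limma 3.58.1, R 4.3.3). Over the 8 arrays together, 13 faulty probe spots were left out. Labels were read with jsonlite 2.0.0. Blank spots averaged 59.8 to 64.3 per array, and the precision is limited by the 8 arrays. Probes above the 95th percentile of the blanks on at least 2 arrays (12904) were fitted with 3 group means over all arrays (lmFit and eBayes, 5 residual and 2.36 prior degrees of freedom). P-values were 2-sided. The code was tested on simulated data. Folds are ratios of mean signals, except the bounds for SMC1A, which are on the log2(signal + 50) scale. Symbols came from the platform table, with those absent from RefSeq updated through unique RefSeq synonyms, and 20236 probes had 1 symbol. Every probe of the 10 genes was named, and other genes of the lists where a probe passed the test or the gene is a paralog. Regulators given with values although not called were chosen after their values were seen. The members and lists were chosen with earlier results of these data known. Promoters were found for 9 of the 10 genes.

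Alternatives were the ring background, subtraction of the blank mean, an offset of 16, centring on the median, the deposited log2 values, no filter, above background on at least 5 arrays, 2 groups alone, an intensity trend, a replicate block, each array left out, and the methods' t-test.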

Additional observations from a re-analysis of the deposited data

How the results depend on the processing

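The number of subunits called, 2 for mimic against negative control and 1 in each other comparison, depended on the processing. For mimic against negative control it was 0 with the ring background, median centring, no filter and the methods' t-test and 1, STAG2, with the authors' log2 values, and 0 to 2 with an array left out. For mimic against mock it was 0 with the ring background, median centring, the authors' log2 values, no filter, 2 groups alone and the methods' t-test, and 0 to 1 with an array left out. For negative control against mock it was 0 with the ring background, median centring, no filter, 2 groups alone and the methods' t-test, and 0 to 1 with an array left out. The cause was not tested. Under the ring background limma called 0 of 12904 probes in each comparison, and the log2 change against the negative control turned to -0.032 for STAG2, 0.19 for PTTG1 and 0.20 for the DDX11 probe H300021750. Without the filter 24460 probes were tested in place of 12904.

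No label ties same-numbered arrays together. Deviations from the group means correlated at 0.10, 0.02 and 0.03 in the 3 same-numbered pairs of mimic and negative control, at 0.35 and 0.27 in the 2 of mimic and mock, and at -0.11 and -0.0042 in the 2 of negative control and mock. Deviations of 2 mock arrays mirror each other, so each 2 such values are not independent, and the numbers were not taken as pairs. With the replicate block the number of subunits called was 2 for mimic against negative control, 0 for mimic against mock, where NCAPH had an adjusted p of 0.0708, and 0 for negative control against mock. The block also ended the DDX11 and NCAPG2 calls. The authors' log2 values gave a log2 change of 0.997 for STAG2 against the negative control and -1.30 for negative control against mock.

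An array count of 2 or 3 per group limits every value, and SMC1A, STAG1 and SMC2 lay close to the blank spots, where the offset of 50 compresses a change. No group held the 4 arrays needed to look for a single array far from the rest.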
